A study of Mus musculus with 2 samples.

Results

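The genes described are the 9 named for interferon gamma and IL12 signalling in these data: the ligand genes Ifng and Il12b, the receptor genes Ifngr1, Ifngr2, Il12rb1 and Il12rb2, and the transcription factor genes Stat4, Tbx21 and Irf1. They were taken by symbol from the table of raw counts, which holds 14654 of the 27998 genes of the count matrices, and all 9 had a row. Counts of unique molecular identifiers (UMIs, 1 per captured transcript copy) were taken from tumors of the BRAF-mutant mouse melanoma line YUMMER1.7 grown under the skin of male C57BL/6 hosts aged 8 weeks for 11 days. The hosts were wild type (WT) in one group and Siah2-/- in the other. Siah2 encodes a RING finger ubiquitin ligase. Leukocytes were sorted on CD45 and mixed with some CD45-negative cells, and 1 droplet library of 3′ tags was made per genotype and run on its own lane. An effect of genotype therefore cannot be told apart from one of the tumor pool, suspension, library or lane, nothing below has a replicate, and the 95% intervals given cover counting error only.

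Interferon gamma is a cytokine that T cells and NK cells secrete on activation. It binds a receptor built from the Ifngr1 and Ifngr2 chains on most cells of a tumor, and it induces Irf1, the genes for antigen presentation, guanylate-binding proteins, the chemokines Cxcl9 and Cxcl10 and the checkpoint ligand Cd274 (PD-L1). IL12, made mainly by activated dendritic cells (DC), is a dimer of the Il12a and Il12b products. It is read by lymphocytes through Il12rb1 and Il12rb2, acts through STAT4, and together with T-bet (Tbx21) raises Ifng transcription. Il12b and Il12rb1 also serve IL23.

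Where a shared element of this circuit could be looked for is the stretch before each transcription start. RefSeq windows of 250 bases upstream (GRCm38.p6) were found for 8 of the 9 genes, 10 windows in all, and Il12rb1 was not matched. The letters TTCNNNGAA, the form that activated STAT dimers are known to bind and the same on both strands, were present in 2306 of 32851 such windows (7.02%) and in 1 window each of Irf1, Ifng and Il12rb2. These 3 are shown because they hold the match, with the matched letters in capitals. The Irf1 match began 90 bases before the start, the Il12rb2 match 123 bases and the Ifng match 249 bases. The letters GAAA, repeated after 2 free bases, of the kind interferon response factors bind, were found among these genes in a Stat4 window (978 of all windows, 2.98%), and AGGTGTGA, a T-box form, in none (368 of all windows, 1.12%). Both strands were searched for each. A match describes letters and is not evidence of binding.
Irf1, chr11:53769764-53770013, plus strand: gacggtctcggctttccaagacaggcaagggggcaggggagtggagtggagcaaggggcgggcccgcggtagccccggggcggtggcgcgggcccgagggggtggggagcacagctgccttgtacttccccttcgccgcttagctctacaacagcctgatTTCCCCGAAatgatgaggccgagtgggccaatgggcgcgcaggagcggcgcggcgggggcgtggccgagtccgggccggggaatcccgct
Ifng, chr10:118440796-118441045, plus strand: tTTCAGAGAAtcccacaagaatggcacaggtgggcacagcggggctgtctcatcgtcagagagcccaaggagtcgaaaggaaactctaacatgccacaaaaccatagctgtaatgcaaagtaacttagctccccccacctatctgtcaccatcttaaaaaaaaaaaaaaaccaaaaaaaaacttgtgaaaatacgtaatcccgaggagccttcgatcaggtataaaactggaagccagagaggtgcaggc
Il12rb2, chr6:67376189-67376438, minus strand: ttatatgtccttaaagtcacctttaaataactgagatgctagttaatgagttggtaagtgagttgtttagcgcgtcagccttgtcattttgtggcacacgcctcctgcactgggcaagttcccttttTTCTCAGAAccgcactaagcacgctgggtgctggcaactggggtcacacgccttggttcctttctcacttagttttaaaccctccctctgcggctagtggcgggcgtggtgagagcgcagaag

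From WT 4512 cells were used (median 11439.5 UMIs), and 5563 from the library labelled Siah2-/- (median 8700 UMIs). Siah2 transcript was counted in both (660 and 505 UMIs), and a 3′ tag does not check the genotype. No WT cell had under 6670 UMIs and none of the other library under 4896, so that many WT lymphocytes with fewer UMIs lay outside the deposited tables. Of all barcodes with at least 1000 UMIs that passed the CD4 T cell gate, 249 of 269 (WT) and 393 of 714 (labelled Siah2-/-) were outside, and class sizes are therefore not compared. Cells were put in classes by marker genes, none of them one of the 9. The classes matched their markers: Cd3e was at 521 and 601 UMIs per 1000000 of the class (CPM) in CD8 T cells against 2.47 and 8.98 CPM in NK cells, and Ncr1 was at 568 and 553 CPM in NK cells. Csf1r was at 591 and 556 CPM in macrophages and Ccr7 at 3567 and 5008 CPM in mature DC. Ptprc, which encodes CD45, was at 3.78 and 9.04 CPM in the CD45-negative classes, in which Sox10 was at 0 and the melanocyte genes Mlana and Pmel were near 0, so the class led by Hmga2 is called by that gene and not as melanoma. In macrophages the neutrophil gene S100a8 was at 16.5 and 59.5 CPM, and its part in the values below was not tested. Paired values are given in the order WT, then labelled Siah2-/-.

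**Figure D1:**
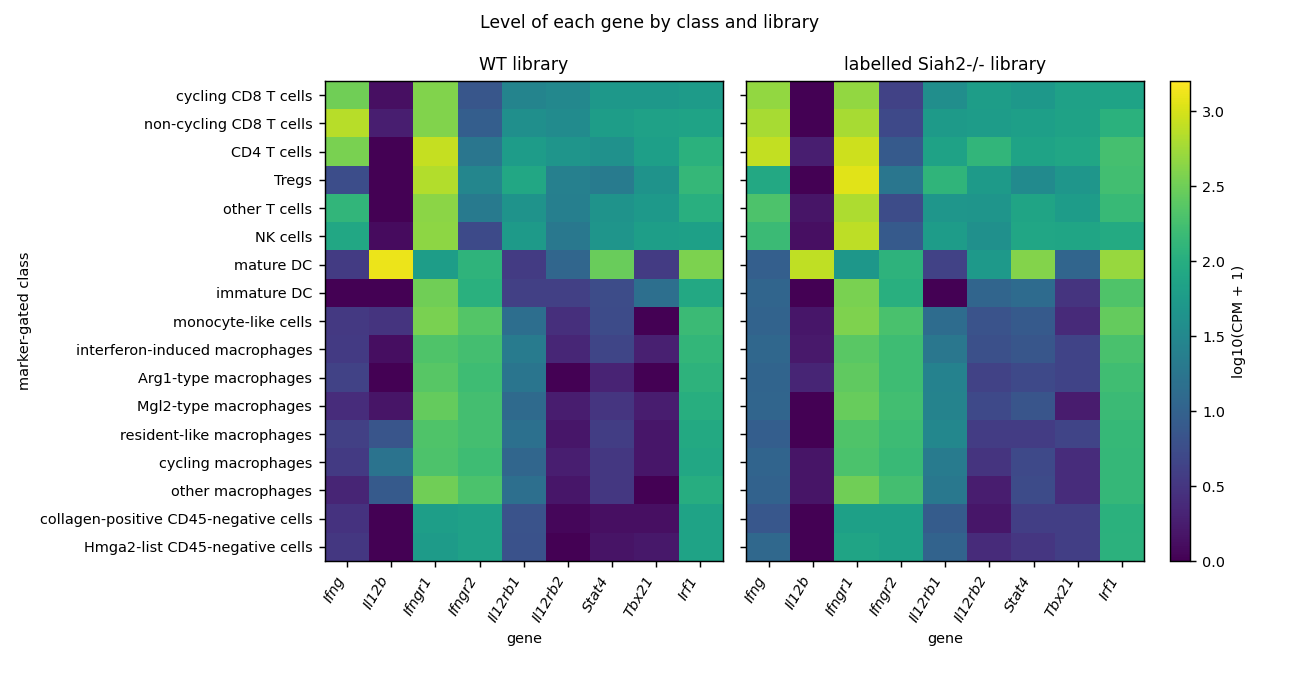
Level of the 9 genes (columns) in 17 marker-gated classes (rows), as log10 of CPM plus 1 by colour, with the WT library on the left and the library labelled Siah2-/- on the right. Ifng and Tbx21 are brightest in T and NK rows, except Ifng in Tregs of WT (4.78 CPM), Il12rb2 is bright in these rows and in mature DC labelled Siah2-/- (53.4 CPM), Il12b is brightest in the mature DC row, Ifngr2 in DC, macrophage and CD45-negative rows, and Ifngr1 and Irf1 in nearly every row.

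Ifng (ENSMUSG00000055170, chromosome 10, 118441046 to 118445892, plus strand of GRCm38, a protein-coding gene of 4 exons) was a T cell transcript in both libraries. T cells held 71.8% of its 3893 UMIs in WT cells and 79.7% of its 9187 UMIs in cells labelled Siah2-/-, while they held 11.7% and 26.1% of all UMIs. NK cells held 8.53% and 9.49%, and barcodes with markers of more than one lineage, which were set apart, held 17.1% and 7.76%. The share held by a class depends on how many of its cells were recovered as well as on its level.

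**Figure D2:**
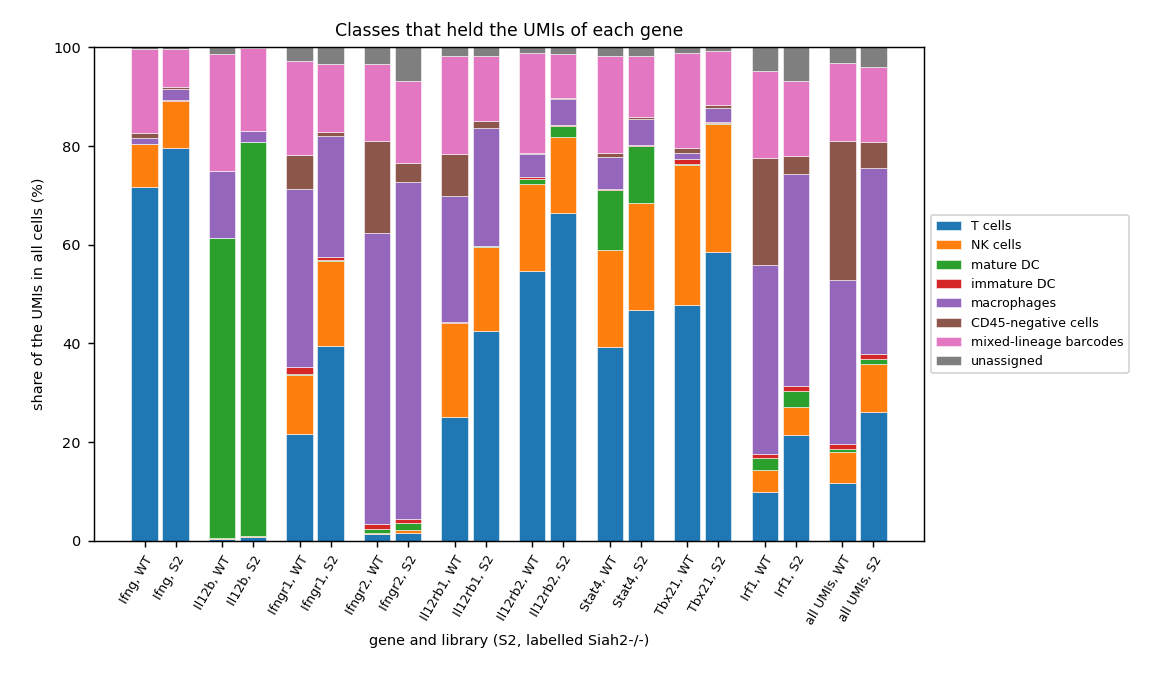
Share of the UMIs of each gene (percent, stacked to 100) held by each broad class, for WT and for the library labelled Siah2-/- (S2), with all UMIs as the last pair. T cells held 71.8% and 79.7% of Ifng UMIs, mature DC 60.8% and 79.8% of Il12b UMIs, and macrophages 59.0% and 68.4% of Ifngr2 UMIs.

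In WT the highest Ifng level was that of non-cycling CD8 T cells, at 709.9 CPM (676 to 745, 242 cells). CD4 T cells other than Tregs (354 CPM, 271 to 454, 20 cells) and cycling CD8 T cells (324 CPM, 303 to 346, 207 cells) came next, and their intervals overlapped. In the library labelled Siah2-/- CD4 T cells were highest at 809 CPM (773 to 847, 321 cells), followed by non-cycling CD8 T cells at 612 CPM (591 to 633, 629 cells) and cycling CD8 T cells at 480.0 CPM (455 to 507, 172 cells). T cells that passed no subset gate followed with 128 and 201 CPM and NK cells with 82.0 and 151 CPM, so the order of the lower classes was the same in both libraries. In non-cycling CD8 T cells of both libraries and in CD4 T cells of WT a single cell held a large part of the Ifng UMIs, as given below. The intervals do not cover this, and the order of the CD4 and CD8 classes was not tested without those cells. The remaining 11 classes, DC, macrophage states and CD45-negative cells, lay between 0 and 3.30 CPM in WT and between 6.35 and 11.0 CPM in the library labelled Siah2-/-.

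That low plateau matched the free RNA of the suspension. Barcodes of 100 or fewer UMIs, which hold RNA released from cells, carried Ifng at 88.9 CPM (80.9 to 97.5) and 191 CPM (180.4 to 202). Scaled by the T and NK transcripts Lck and Gzma in macrophages, free RNA would give 2.46 and 10.3 CPM of Ifng there, and 2.23 and 9.68 CPM were measured. The same estimate for CD45-negative cells was 1.63 and 8.46 CPM beside 2.14 and 8.40 CPM measured. Ifng in macrophages and in CD45-negative cells as a whole was thus at or near background, and their ratios between libraries, 2.12 and 1.97 on the log2 scale, compare such levels. Hmga2-led cells of WT, one of the CD45-negative classes, had 2.27 CPM (1.44 to 3.41), slightly above their estimate of 1.39 CPM. In CD8 T cells the part given by free RNA, scaled by the C1q genes of macrophages, was 5.29 and 10.6 CPM, far under the measured 497 and 567 CPM.

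**Figure D3:**
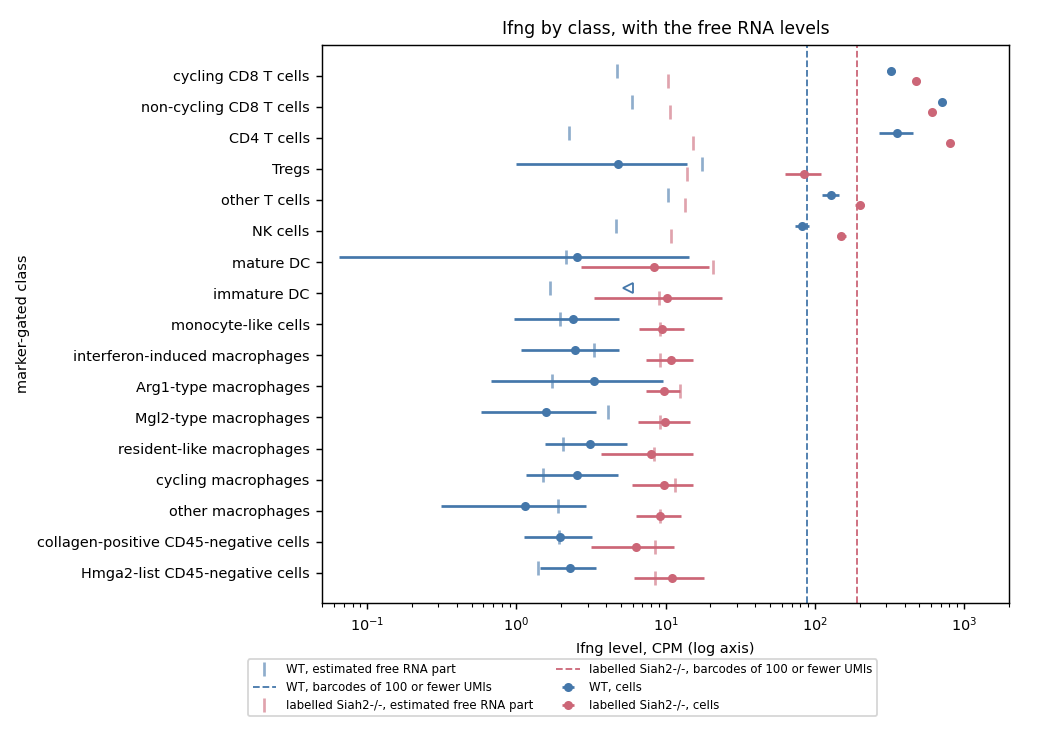
Ifng level in CPM (log axis) by class, as points with 95% counting intervals, with the estimated part from free RNA as short vertical marks, the level in barcodes of 100 or fewer UMIs as dashed lines (88.9 and 191 CPM), and an open triangle at the upper limit for immature DC of WT, which had no UMI. T and NK classes stand to the right of their marks, except Tregs of WT, and the classes below them overlap theirs or lie under them, apart from Hmga2-led cells of WT.

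Between the libraries Ifng was higher in the one labelled Siah2-/- in most lymphoid classes and lower in one. In NK cells, innate lymphocytes that make interferon gamma without antigen recognition, the levels of 82.0 (73.4 to 91.3) and 151 CPM (141 to 161) gave a log2 ratio of 0.88 (0.69 to 1.06). In cycling CD8 T cells the log2 ratio was 0.57 (0.44 to 0.69) and in T cells outside the subset gates 0.65 (0.43 to 0.87). In non-cycling CD8 T cells it was -0.22 (-0.30 to -0.13), a value carried by few cells: 1 WT cell held 495 of 1611 UMIs and 1 cell labelled Siah2-/- held 775 of 3281. Without those cells it was -0.08, and over all gated barcodes of at least 1000 UMIs (811 and 857, with 495 and 558 CPM) it was 0.17 (0.10 to 0.25). With the lowest WT UMI count as the minimum in both libraries it was -0.025, so its direction depends on which barcodes are taken. Over all CD8 T cells the log2 ratio was 0.19 (0.12 to 0.26), under 1.5-fold.

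CD4 T cells and Tregs gave the largest Ifng ratios on the thinnest WT data. In CD4 T cells 354 and 809 CPM gave a log2 ratio of 1.19 (0.83 to 1.58), but 1 WT cell held 37 of 62 UMIs. Without the leading cell of each library it was 2.35, and over all gated barcodes, 269 and 714, the levels were 424 and 689 CPM and the log2 ratio 0.70 (0.55 to 0.85). In Tregs, the Foxp3-positive T cells that restrain other lymphocytes, 58 WT cells held 3 Ifng UMIs (4.78 CPM) and 77 cells labelled Siah2-/- held 54 (84.3 CPM, 63.3 to 110.0), of which 15 were in 1 cell. The WT level was under the free RNA estimate of 17.4 CPM and the other above its estimate of 13.8 CPM. Over all gated barcodes, 399 and 217, the Treg levels were 20.8 and 62.5 CPM, with a log2 ratio of 1.59 (0.99 to 2.21) in place of 4.14 (2.52 to 6.46). The macrophage gene C1qa was at 321 CPM in WT Tregs and 96.8 CPM in those labelled Siah2-/-, and Cd74, an antigen presentation gene, at 3716 and 774 CPM, and the part of such RNA in the Treg values was not tested.

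The share of cells with an Ifng UMI was compared after each cell was thinned to 4800 UMIs. It was 56.3% (51.6 to 61.0) and 57.4% (53.9 to 60.9) in CD8 T cells, which did not differ beyond counting error. In NK cells it was 24.1% (20.0 to 28.6) and 36.5% (32.8 to 40.4). Unthinned, the shares were 72.4% and 70.2% in CD8 T cells (median 9729 and 8481 UMIs) and 35.8% and 45.9% in NK cells (median 9248.5 and 7860 UMIs). Macrophages, which stand for the background, had thinned shares of 1.48% and 4.06% (median 10160 and 9315 UMIs). More NK cells labelled Siah2-/- thus carried Ifng, while no difference beyond counting error was seen among CD8 T cells.

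Ifng was unevenly spread over CD8 T cells. Those with 5 or more thinned Ifng UMIs made up 10.2% of WT (46 cells) and 13.4% of cells labelled Siah2-/- (107 cells), at 2777 and 2489 CPM of Ifng, a level that follows from how they were picked. The leading non-cycling CD8 T cell of each library, described above, was among them and held a large part of their 1461 and 2980 Ifng UMIs. Its part in the other values of these cells was not tested. The chemokine genes Ccl3 and Ccl4, whose products activated T cells release, chosen for naming after their values were seen, were at 3476 and 3163 CPM and at 8721 and 7839 CPM in these cells. In CD8 T cells with no thinned Ifng UMI Ccl3 was at 108 and 128 CPM and Ccl4 at 521 and 767 CPM. Tbx21 differed less, with 83.6 and 86.9 CPM in the first kind and 50.2 and 55.8 CPM in the second, and Stat4 hardly (53.2 and 57.6 against 56.7 and 62.7 CPM). Irf1 was at 20.9 CPM in the Ifng-rich cells of WT against 70.1 CPM in those without, and at 81.9 against 108 CPM in the library labelled Siah2-/-. These are groups of cells of 1 library each, with no test.

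Il12b (ENSMUSG00000004296, chromosome 11, 44400063 to 44414033, plus strand, 8 exons) encodes the p40 chain that IL12 and IL23 share, and it was a mature DC transcript. Mature DC are the Ccr7-positive DC that have taken up antigen and are bound for lymph nodes. The 38 WT cells held 491 Il12b UMIs (1259 CPM, 1150.1 to 1375) and the 67 cells labelled Siah2-/- held 473 (789.6 CPM, 720.0 to 864), which gave a log2 ratio of -0.67 (-0.86 to -0.49). Mature DC were 0.842% and 1.20% of the cells but held 60.8% and 79.8% of the Il12b UMIs. Mixed-lineage barcodes, which were set apart, held 23.7% and 16.7%. Immature DC had none in 55 and 50 cells. The floor used for a count of 0, 3 cells of the total and not an exact binomial limit, is 5.45% and 6.00% of these cells. Free RNA carried 10.2 and 2.48 CPM. Il12a, whose product pairs with p40 to make IL12, was at 0 UMIs in mature DC of both libraries.

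The lower Il12b level in the library labelled Siah2-/- went with fewer positive cells rather than with fewer UMIs in each. At least 1 UMI was found in 32 of 38 WT cells (84.2%, 68.7 to 94.0) and in 28 of 67 cells labelled Siah2-/- (41.8%, 29.8 to 54.5), and in 73.7% (56.9 to 86.6) and 35.8% (24.5 to 48.5) after thinning. Positive cells held a median of 5.5 and 10 UMIs. It was unevenly spread, since the highest cells had 148 and 84 UMIs (30.1% and 17.8% of the class), and without the highest cell of each the log2 ratio was -0.44. With all gated barcodes (98 and 73) the levels were 1084 and 766 CPM, and the log2 ratio was -0.50 (-0.67 to -0.34).

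**Figure D4:**
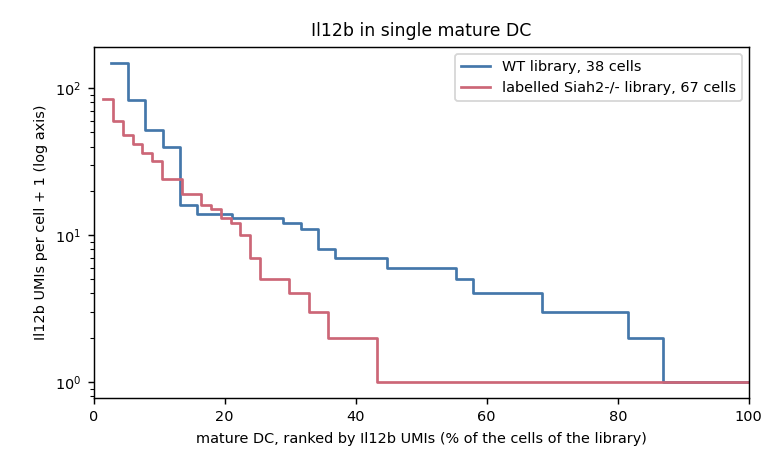
Il12b UMIs per cell plus 1 (log axis) for mature DC ranked from the highest, with the rank as a percentage of the cells of the library, for 38 WT cells and 67 cells labelled Siah2-/-. The WT line reaches the floor, which stands for no UMI, after 84.2% of the cells and the other after 41.8%.

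Macrophages held 13.6% and 2.36% of the Il12b UMIs. They held 110 UMIs in 29 cells (5.11 CPM, 4.20 to 6.16) and 14 UMIs in 8 cells (0.628 CPM, 0.343 to 1.05), a log2 ratio of -3.03 (-3.94 to -2.22), where free RNA would give 0.282 and 0.133 CPM. Of the WT UMIs 37 were in 1 cycling macrophage. By state the WT level was 15.5 CPM in cycling, 7.15 CPM in ungated and 5.90 CPM in resident-like macrophages, and between 0 and 2.04 CPM in the others. No Il12b UMI was found in 717 and 123 CD45-negative cells.

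Ifngr1 (ENSMUSG00000020009, chromosome 10, 19591949 to 19610229, plus strand, 7 exons) encodes the ligand-binding chain of the interferon gamma receptor and was found in every class. In WT it was highest in CD4 T cells (822 CPM, 694 to 968) and Tregs (678 CPM, 615 to 745), whose intervals overlapped. In the library labelled Siah2-/- Tregs came first (1129 CPM, 1048 to 1214) and CD4 T cells second (895 CPM, 856 to 935). NK cells had 457 (436 to 478) and 761 CPM (739 to 784), CD8 T cells 393 (376 to 411) and 561 CPM (545 to 578), and T cells outside the subset gates 446 and 646 CPM. Monocyte-like cells, at 364 and 378 CPM, led the myeloid classes, and the macrophage states lay between 199 and 318 CPM in WT and between 194 and 323 CPM in the library labelled Siah2-/-. The CD45-negative classes (58.2 and 68.1 CPM together) and mature DC (59.0 and 48.4 CPM) were lowest, whereas immature DC had 317 and 364 CPM. For mature DC labelled Siah2-/- the free RNA estimate of 44.6 CPM was close to the level. The same scaling would give more Ifng in these cells than the 8.35 CPM measured (5 UMIs), so it cannot place Ifngr1 at background there.

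Ifngr1 was higher in the library labelled Siah2-/- in most lymphocytes and nearly level in macrophages. The log2 ratio was 0.74 in NK cells (0.66 to 0.82), 0.74 in Tregs (0.56 to 0.91), 0.51 in CD8 T cells (0.44 to 0.59) and 0.12 in CD4 T cells (-0.12 to 0.38), the last within counting error. Macrophages had 258 (251 to 265) and 282 CPM (275 to 289), a log2 ratio of 0.13 (0.08 to 0.18). With all gated barcodes the lymphocyte values were 0.59 in NK cells, 0.24 in Tregs, 0.38 in CD8 T cells and -0.01 in CD4 T cells. NK barcodes outside the deposited tables held more Ifngr1 per UMI than the NK cells inside: the 790 and 635 outside were at 961 and 1715 CPM, with a median of 4166 and 3513 UMIs.

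Ifngr2 (ENSMUSG00000022965, chromosome 16, 91547072 to 91565623, plus strand, 7 exons) encodes the signalling chain of the same receptor and was lowest in T and NK cells. Monocyte-like cells had 219 (202 to 236) and 190.3 CPM (176 to 205), and the macrophage states lay between 160.3 and 198 CPM in WT and between 146 and 176 CPM in the library labelled Siah2-/-. Mature DC had 121 and 115 CPM, immature DC 106 and 102 CPM, and CD45-negative cells 67.4 and 64.6 CPM. CD8 T cells had 6.92 (4.82 to 9.63) and 3.81 CPM (2.59 to 5.40) beside free RNA estimates of 4.73 and 4.04 CPM, and NK cells 4.20 and 7.08 CPM beside 4.18 and 4.12 CPM. In CD8 T and NK cells Ifngr2 was thus near background: thinned, 3.34% and 1.62% of CD8 T cells had a UMI against 57.2% and 54.1% of macrophages. The interval of WT CD8 T cells lay just above their estimate, and NK cells labelled Siah2-/- were above theirs. Over all gated barcodes NK cells had 3.77 and 6.73 CPM, a log2 ratio of 0.84 (0.15 to 1.55), beyond counting error. Tregs, with 18 and 11 UMIs, had 28.7 (17.0 to 45.4) and 17.2 CPM (8.57 to 30.7), above free RNA estimates of 15.6 and 5.27 CPM, and T cells outside the subset gates had 19.1 and 4.54 CPM beside 9.27 and 5.16 CPM. In macrophages the libraries differed by little, with 181 and 167 CPM and a log2 ratio of -0.12 (-0.19 to -0.06). In mature DC the log2 ratio was -0.07 (-0.62 to 0.50). Over the 17 classes, which share free RNA and library, the log2 levels of Ifngr2 and Tbx21 correlated at r = -0.93 and -0.96, those of Ifngr2 and Ifng at r = -0.86 and -0.93, and those of both receptor chains, Ifngr1 and Ifngr2, at r = -0.43 and -0.58.

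Il12rb1 (ENSMUSG00000000791, chromosome 8, 70808449 to 70821424, plus strand, 16 exons), the chain common to the IL12 and IL23 receptors, was highest in Tregs at 81.3 (60.6 to 107) and 122 CPM (96.3 to 152). CD4 T cells had 57.1 (27.4 to 105) and 68.5 CPM (58.2 to 80.2), NK cells 55.1 (48.1 to 62.8) and 57.3 CPM (51.3 to 63.8), and CD8 T cells 31.8 (27.1 to 37.2) and 48.8 CPM (44.1 to 53.8), and the intervals of the first 3 of these classes overlapped in WT. CD8 T cells had a log2 ratio of 0.61 (0.35 to 0.89), and the NK value of 0.06 (-0.19 to 0.31) was within counting error. Macrophages carried 13.9 and 20.8 CPM, above free RNA estimates of 0.498 and 1.37 CPM, with a log2 ratio of 0.58 (0.36 to 0.79). Among their states the ratio was 1.14 (0.58 to 1.71) in Mgl2-type, 1.07 (0.39 to 1.73) in resident-like and 0.95 (0.26 to 1.64) in cycling macrophages, and within counting error in the other 4. In mature DC 1 and 2 UMIs were counted.

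Il12rb2 (ENSMUSG00000018341, chromosome 6, 67291318 to 67376188, minus strand, 16 exons) encodes the IL12-specific chain, which type 1 lymphocytes gain on activation, and was higher beyond counting error in the library labelled Siah2-/- in each lymphocyte class of at least 20 cells per library. Naive-type T cells, below that minimum, had 0 and 8 UMIs. NK cells had 18.03 CPM (14.1 to 22.7) and 39.2 CPM (34.3 to 44.6), a log2 ratio of 1.12 (0.73 to 1.52), and 8.88% and 19.3% of them had a UMI after thinning (16.2% and 28.4% unthinned). CD8 T cells had 32.2 (27.5 to 37.6) and 58.6 CPM (53.4 to 64.1), a log2 ratio of 0.86 (0.60 to 1.13), with 0.97 in cycling and 0.75 in non-cycling cells. CD4 T cells had 45.7 (19.7 to 90.0) and 125 CPM (111 to 141), and Tregs 23.9 (13.4 to 39.5) and 54.7 CPM (38.1 to 76.0), with log2 ratios of 1.45 (0.46 to 2.68) and 1.19 (0.28 to 2.17). With all gated barcodes the log2 ratios were 0.69 in NK cells, 0.87 in CD8 T cells, 1.20 in CD4 T cells and 1.07 in Tregs, each beyond counting error. The levels in these lymphocytes lay above the free RNA estimates, which ranged from 0.238 to 1.84 CPM.

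Mature DC also carried Il12rb2, with 4 UMIs in 2 of 38 WT cells (10.3 CPM, 2.79 to 26.3) and 32 UMIs in 20 of 67 cells labelled Siah2-/- (53.4 CPM, 36.5 to 75.4). The free RNA estimates were 0.226 and 2.27 CPM. Over all gated barcodes the levels were 18.5 and 52.7 CPM. Macrophages had 0.883 and 3.41 CPM and CD45-negative cells 0.0548 and 0.969 CPM. The last exons of Il12rb2 lie opposite Serbp1 on the other strand, and Serbp1 was at 595 and 457 CPM in CD45-negative cells, where Il12rb2 was near 0.

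Stat4 (ENSMUSG00000062939, chromosome 1, 51987148 to 52107189, plus strand, 25 exons) encodes the factor that the IL12 receptor activates. Its highest level was not in lymphocytes but in mature DC, at 292 (241 to 351) and 404 CPM (355 to 458), where 86.8% and 92.5% of the cells had a UMI (76.3% and 79.1% thinned), while immature DC had 4.54 and 12.3 CPM. NK cells had 45.7 (39.4 to 52.8) and 78.0 CPM (71.0 to 85.6), CD8 T cells 54.2 (48.0 to 61.0) and 58.6 CPM (53.4 to 64.1), CD4 T cells 40.0 (16.1 to 82.4) and 70.3 CPM (59.8 to 82.1), and Tregs 20.7 (11.0 to 35.5) and 32.8 CPM (20.3 to 50.1). Stat4 was higher in NK cells labelled Siah2-/-, with a log2 ratio of 0.77 (0.52 to 1.03), and within counting error in CD8 T cells (0.11, -0.10 to 0.33). In mature DC the log2 ratio was 0.47 (0.14 to 0.80), and with all gated barcodes it was 0.20 (-0.06 to 0.46), within counting error. Macrophages had 2.79 and 5.02 CPM.

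Tbx21 (ENSMUSG00000001444, chromosome 11, 97098071 to 97115331, minus strand, 6 exons), which encodes T-bet, the factor that sets the type 1 program of T and NK cells, differed less than the receptor Il12rb2. CD8 T cells had 57.0 (50.6 to 63.9) and 67.7 CPM (62.1 to 73.6), NK cells 60.8 (53.4 to 68.9) and 75.8 CPM (68.9 to 83.2), CD4 T cells 62.8 (31.4 to 112) and 76.4 CPM (65.5 to 88.7), and Tregs 43.1 (28.4 to 62.6) and 46.8 CPM (31.6 to 66.9). The log2 ratio was 0.25 (0.04 to 0.46) in CD8 T cells and 0.32 (0.09 to 0.55) in NK cells, both under 1.5-fold, and within counting error in CD4 T cells and Tregs. With all gated barcodes it was 0.13 (-0.05 to 0.30) in CD8 T cells, then within counting error, 0.25 (0.08 to 0.41) in NK cells and 0.51 (0.09 to 0.96) in CD4 T cells, then beyond it. In each library the intervals of CD8, CD4 and NK cells overlapped. Macrophages had 0.465 and 2.29 CPM beside free RNA estimates of 0.542 and 1.72 CPM, so that their ratio compares levels close to background.

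Irf1 (ENSMUSG00000018899, chromosome 11, 53770014 to 53778374, plus strand, 10 exons, with a noncoding transcript on the opposite strand) is a direct target of interferon gamma and was present in every class. Mature DC were highest at 367 (309 to 432) and 501 CPM (446 to 561). Monocyte-like cells had 151 (137 to 165) and 273 CPM (256 to 291), interferon-induced macrophages 130 (118 to 143) and 191 CPM (175 to 207), Tregs 132 and 169 CPM, and immature DC 83.3 (62.8 to 108) and 204 CPM (166 to 249). The lowest levels were those of CD8 T cells (62.5 and 97.2 CPM), NK cells (64.2 and 88.9 CPM) and CD45-negative cells (71.0 and 112 CPM).

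Irf1 was higher beyond counting error in the library labelled Siah2-/- in 16 of the 17 classes, the exception being Tregs (log2 ratio 0.35, -0.08 to 0.78). The 17 are the classes with at least 20 cells in each library, which left out naive-type T cells (5 and 55 cells), with 0.31 (-0.89 to 1.80). The log2 ratio was 0.71 (0.63 to 0.78) over all macrophages, from 107 (102 to 111) to 174 CPM (169 to 180), and ran from 0.43 in ungated to 0.86 in monocyte-like cells across their states. It was 0.66 (0.48 to 0.83) in CD45-negative cells, 0.64 (0.45 to 0.83) in CD8 T cells, 0.47 (0.25 to 0.69) in NK cells and 0.45 (0.16 to 0.75) in mature DC. In free RNA Irf1 was at 120.2 and 191 CPM, of which an estimated 3.33 and 10.3 CPM reached macrophages. With all gated barcodes the log2 ratio was 0.60 in macrophages, 0.31 in CD8 T cells, 0.44 in NK cells and 0.50 in mature DC.

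Set against all genes, the 9 genes stood as follows, counting those of at least 50 UMIs over both libraries in a class. In NK cells 5 of 8 were at least 1.5-fold higher in the library labelled Siah2-/-, namely Ifng, Ifngr1, Ifngr2 (near background and within counting error), Il12rb2 and Stat4, and none lower, where 9.24% of all genes were higher and 3.14% lower. Ifngr2 (17 and 41 UMIs) passed the filter mainly through the library in which it was higher, so this count is a description only. The 5 log2 ratios ran from 0.59 to 0.89 over all gated barcodes. The lowest, that of Ifngr1, was just past 1.5-fold, and it was 0.51, under that fold, with the lowest WT UMI count as the minimum in both libraries. In CD8 T cells 3 of 8 were higher, Il12rb1, Il12rb2 and Irf1, and Ifngr2 was lower at a level near background, where 7.93% and 7.52% of all genes were (9.22% and 5.76% when scaled by the median of ratios). Over all gated barcodes Il12rb2 (0.87) alone of these stayed past 1.5-fold, since Il12rb1 was at 0.51, Irf1 at 0.31 and Ifngr2 at -0.56. In CD4 T cells 4 of 7 were higher, Ifng, Il12rb2, Irf1 and, within counting error, Stat4, where 20.2% of all genes were higher and 13.9% lower. With 20 WT against 321 cells, Il12rb2 (8 and 285 UMIs), Irf1 (19 and 412) and Stat4 (7 and 160) passed the filter mainly through the library in which they were higher, so this count is a description only. Over all gated barcodes Irf1 (0.50) and Stat4 (0.34) were under 1.5-fold. Median scaling, a shift of -0.15 on the log2 scale for that class, made these 26.4% and 9.06%, and it moved the Ifng ratio there from 1.19 to 1.34.

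In Tregs 3 of 6 were higher, Ifng, Ifngr1 and Il12rb2, where 12.3% of all genes were higher and 13.6% lower. Ifng (3 and 54 UMIs) and Il12rb2 (15 and 35 UMIs) passed the filter mainly through the library in which they were higher, and this count too is a description only. Ifngr1 in Tregs was at 0.24, under 1.5-fold, over all gated barcodes. In macrophages 5 of 9 were higher, where 8.45% of all genes were, and Il12b was lower, where 7.29% were. Of those 5, Ifng and Tbx21 were at background, Il12rb2 and Stat4 under 6 CPM, and Ifng, Tbx21 and Il12rb2 passed the filter mainly through the library in which they were higher, so the count in macrophages is a description only. Over all gated barcodes Il12rb1 (0.61) was past 1.5-fold there as well. In mature DC none of 5 was higher, where 13% of all genes were, and 1, Il12b, was lower, where 7.4% were, although its -0.50 over all gated barcodes was under 1.5-fold. As a description, the median log2 ratio of the genes counted was 0.75 in NK cells beside 0.06 over all genes, 0.38 beside -0.05 in CD8 T cells, and -0.07 beside 0.03 in mature DC.

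**Figure D5:**
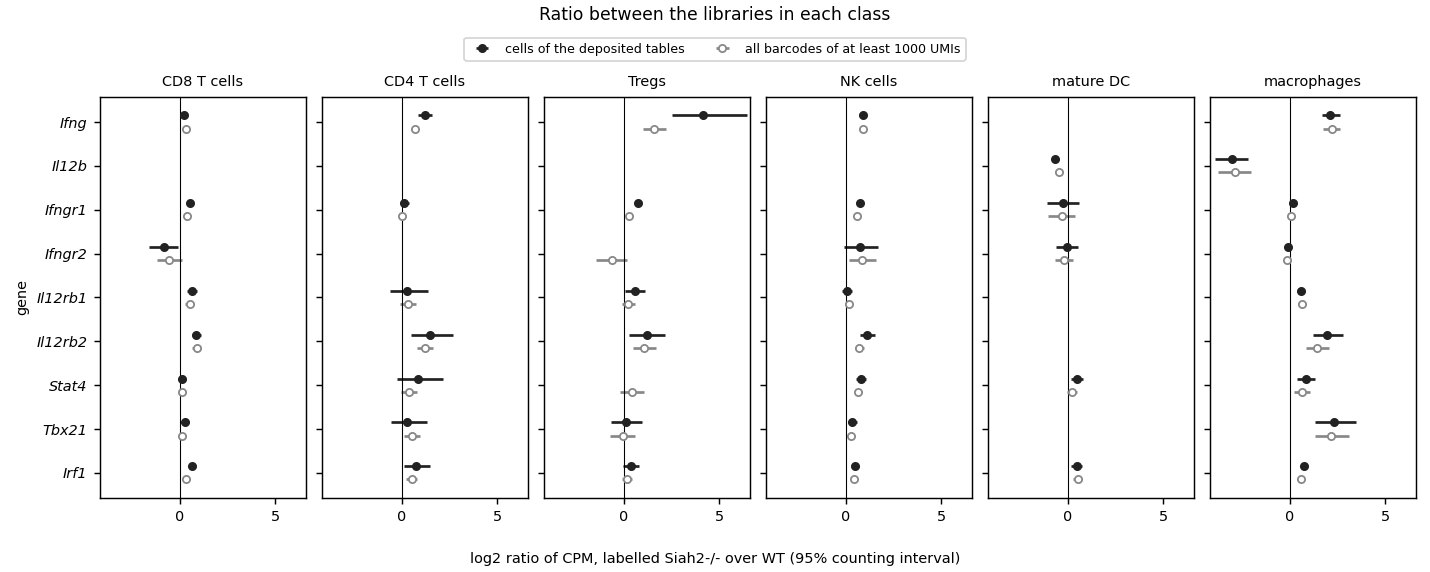
Log2 ratio of CPM, labelled Siah2-/- over WT, for the 9 genes in 6 classes, with 95% counting intervals. Filled points are the cells of the deposited tables and open points all gated barcodes of at least 1000 UMIs. Genes under 50 UMIs in a class are not drawn. Points for Il12rb2 lie right of 0 in the 5 classes that show it, Il12b lies left of 0 in mature DC (-0.67) and macrophages (-3.03), and the Treg Ifng point moves from 4.14 to 1.59.

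Other genes of the circuit were read from lists of targets. Of 24 interferon gamma targets, 23 were measured in macrophages, and 5 were at least 1.5-fold higher and none lower, where 8.45% and 7.29% of all genes were, with a median log2 ratio of 0.27 beside -0.05 over all genes. Cd274 went from 42.2 to 122 CPM, the guanylate-binding protein genes Gbp2 from 375 to 787 CPM and Gbp4 from 65.0 to 140 CPM, and Socs1, an inhibitor of the same pathway, from 66.8 to 115 CPM. Irf8 was at 391 and 379 CPM. In mature DC 7 of 15 measured targets were at least 1.5-fold higher and none lower, beside 13% and 7.4% of all genes, with a median of 0.57. Irgm1 (8 and 43 UMIs), Cxcl10 (9 and 101), Cxcl9 (30 and 144) and Gbp5 (28 and 85) among them passed the filter mainly through the library in which they were higher, so this count is a description only. The chemokine gene Cxcl9 was at 76.9 and 240.4 CPM and Cxcl10 at 23.1 and 169 CPM, beside the lower Il12b of the same cells.

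In CD8 T cells 22 targets were measured, with 6 past 1.5-fold higher, none lower (7.93% and 7.52% of all genes) and a median of 0.40. Irgm2 (39 and 117 UMIs) and Gbp5 (48 and 118) passed the filter mainly through the library in which they were higher, so this count is a description only. The GTPase gene Igtp was at 138 and 270 CPM, while Irf8 was at 326 and 253 CPM and Cxcl9 at 20.4 and 14.7 CPM. In NK cells 1 of 22 was higher, H2-Ab1, and 1 lower by that fold, Cxcl9 (23.5 and 14.2 CPM), beside 9.24% and 3.14% of all genes, and the median was 0.16 beside 0.06. Both are abundant in macrophages, H2-Ab1 at 10407 and 11737 CPM and Cxcl9 at 391 and 495 CPM, and the macrophage gene C1qa was at 85.0 and 74.7 CPM in NK cells. The part of free RNA in the target values of T and NK cells was not tested. In Tregs 1 of 16 was higher and 2 lower, these being Cd74 and H2-Ab1, beside 12.3% and 13.6%. In CD4 T cells 6 of 21 were higher and none lower, beside 20.2% and 13.9%, with a median of 0.14. Of those 6, Cxcl9 and Gbp5 had no WT UMI, Nlrc5 had 1 and Cxcl10 had 2, so that this count is a description only, and H2-Ab1 was at 931 and 643 CPM and Cd74 at 1485 and 1223 CPM. Of the 10 genes taken as IL12 targets in lymphocytes, of which Ifng is itself one, 4 were past 1.5-fold higher in CD8 T cells (median 0.51, beside 7.93% of all genes) and 5 in NK cells (median 0.47, beside 9.24%), with none past it lower in either, beside 7.52% and 3.14%. In CD4 T cells 4 of 9 measured were higher and 1, Cxcr3, was lower (20.2% and 13.9% of all genes), in Tregs 3 of 7 were higher and none lower (12.3% and 13.6%), and in macrophages 5 of 9 were higher and 1 lower (8.45% and 7.29%). These 3 counts are a description only. Il18r1 (8 and 253 UMIs), Il18rap (3 and 170) and Gadd45g (3 and 91) in CD4 T cells and Ifng (3 and 54) and Gadd45g (11 and 46) in Tregs passed the filter mainly through the library in which they were higher. So did Il18r1 (23 and 58) and Il18rap (42 and 104) in macrophages, where Ifng was at background. In CD8 T cells the cytotoxic protease gene Gzmb was at 3489 and 6578 CPM, the stress-response gene Gadd45g at 18.4 and 52.3 CPM and Cxcr3, a receptor for Cxcl9 and Cxcl10, at 89.6 and 128 CPM. Gadd45g was instead at 75.8 and 59.4 CPM in NK cells, and Cxcr3 at 279.8 and 125 CPM in CD4 T cells. In NK cells the IL18 receptor genes Il18r1 and Il18rap were at 24.9 and 49.0 CPM and at 30.9 and 52.8 CPM, while Gzmb was level (3595 and 3638 CPM). The feedback inhibitor Socs3 was at 39.8 and 93.7 CPM in NK cells, 16.8 and 43.1 CPM in CD8 T cells and 31.9 and 85.9 CPM in Tregs, but at 68.5 and 72.0 CPM in CD4 T cells, a log2 ratio of 0.07 (-0.77 to 1.05).

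The genes most like those of the circuit were found by the correlation of log2(CPM + 10) over the 17 classes, taking the lower of both libraries among 9265 genes. The closest to Ifng was Cd96 (r = 0.97 and 0.98), a receptor of T and NK cells, and to Tbx21 it was Ablim1 (r = 0.98 and 0.98). Il12rb1 was closest to Tsc22d4 (r = 0.90 and 0.91). Stat4 followed Serpinb6b (r = 0.97 and 0.98) and Serpinb9, an inhibitor of granzyme B, and Il12b followed Ramp3 (r = 0.95 and 0.95). Ifngr1 was closest to Il16 (r = 0.98 and 0.96), Ifngr2 to P2rx4 (r = 0.97 and 0.97), and Irf1 to Arhgap31 (r = 0.91 and 0.88) and Psme2, a proteasome activator gene. Ifng and Il12rb2 correlated at r = 0.87 and 0.86 and Irf1 and Il12b at r = 0.76 and 0.71. Il12b was at 1259 and 789.6 CPM in mature DC and at or under 15.5 CPM in each other of the 17 classes, so its correlations rest mainly on mature DC. All classes of a library share its free RNA, so these values describe the distributions only.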

How the data were processed

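UMI counts per gene and barcode were deposited by the authors, who made them from 10x Genomics 3′ v2 libraries with bcl2fastq and Cell Ranger on mm10/GRCm38, according to the submitters' notes. For Cell Ranger no version is given in the sources used here. The authors dropped cells with very few or very many detected genes and those with a high mitochondrial share. A second deposited table gives the natural log of 1 plus UMIs per 10000, computed by the authors, and served to choose the 10075 cells used. Its values entered no result. For the 9 genes, 0 values differed between the raw table and the matrices. Counts over all barcodes came to 98517832 UMIs (WT) and 85396790 UMIs (Siah2-/-). No column of the authors' own comparisons was used, and 0 columns belonged to other samples.

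Cells were gated on summed marker UMIs (Python 3.11.15, NumPy 2.4.6, SciPy 1.17.1, pandas 2.3.3), with minimums of 6 (CD3 genes), 4 (NK), 8 (macrophage), 3 (DC), 5 (mature DC) and 6 (collagen and fibroblast) set after the marker distributions were seen. Mixed-lineage barcodes (537 and 521) were set apart, no doublet caller was run, and 34 barcode sequences occurred in both libraries. Macrophage states were assigned by standardised marker sums, with 553 and 657 cells near a limit. UMIs were summed per class and given as CPM with exact Poisson intervals, shares with exact binomial intervals, and ratios with exact conditional intervals, after the scripts were tested on simulated data. With 1 library per genotype no test was possible. Free RNA was read in 582342 and 571512 barcodes of 100 or fewer UMIs. Its part in a class was estimated from C1qa, C1qb and C1qc in T and NK cells and from Lck and Gzma elsewhere, since T cell receptor constant genes had no row. All 9 genes were named in every class, further genes came from fixed pathway lists, and the 3 most alike per gene were ranked. The 9 genes and the lists were chosen with earlier results of these data known. Gene annotation is GENCODE on GRCm38, and promoter sequences are RefSeq's. Some items are not reported here.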

Additional observations from a re-analysis of the deposited data

Results flagged for a closer look

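The sign of the Ifng ratio between the libraries was not the same in every lymphoid class of the deposited tables. The log2 ratio, labelled Siah2-/- over WT, was 0.57 in cycling CD8 T cells, 1.19 in CD4 T cells, 4.14 in Tregs, 0.65 in T cells outside the subset gates and 0.88 in NK cells, but -0.22 in non-cycling CD8 T cells. The last was 0.17 over all gated barcodes of at least 1000 UMIs and -0.08 without the leading cell of each library, and the Treg value over those barcodes was 1.59. The difference between classes was not tested, since each genotype has 1 library. Barcodes outside the deposited tables also carried Ifng above free RNA. Those that passed the CD8 T cell gate, 597 of WT and 234 of the other library, had 308 and 340 CPM, and those that passed the NK gate, 790 and 635, had 153 and 370 CPM. Free RNA held 88.9 and 191 CPM.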

How the results depend on the processing

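No paired analysis was possible because each genotype has 1 library and the labels carry no replicate numbers. Of 415 recomputed log2 ratios, 382 stayed within their counting error, 32 moved beyond it and 1 reversed: Ifng in non-cycling CD8 T cells became 0.17 with all barcodes of at least 1000 UMIs. With those barcodes the CD8 ratio of Ifng became 0.33, Ifngr1 0.38 in CD8 T cells and 0.59 in NK cells, Il12rb2 0.69 in NK cells and Irf1 0.60 in macrophages. With the lowest WT UMI count in both libraries these were 0.30 (Ifng, CD8), 0.43 (Ifngr1, CD8), 0.51 (Ifngr1, NK), -0.47 (Il12b, mature DC) and 0.59 (Irf1, macrophages). As a mean over cells Ifng in CD8 T cells was 0.034 and Il12b in mature DC -1.04. From summed counts, Il12b in mature DC was -0.44 without the leading cell of each library. Irf1 in macrophages was 0.62 with states weighted equally, a setting chosen after seeing the data. The cause of these moves was not tested. Ifng in CD4 T cells was 0.57 with doubled marker gates. Of 48 levels 10 moved, of 120 shares 72 moved, and of 18 free RNA levels none did. With genes of 1 UMI or more counted, the percentages of genes past 1.5-fold higher and lower were 42.1 and 20.9 in CD4 T cells, 26.3 and 25.9 in Tregs, 22.3 and 11.0 in NK cells, 29.7 and 29.3 in mature DC, 21.1 and 16.6 in CD8 T cells and 19.4 and 14.8 in macrophages.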
